A study of Mus musculus with 6 samples.

Results

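The chemokine ligands Cxcl1, Cxcl2, Cxcl3 and Cxcl12 and the chemokine receptors Cxcr2 and Cxcr4 were followed in immune cells of the mouse spinal cord. These 6 genes were chosen by name, for their known part in neutrophil traffic, from the 19449 genes of a single-cell count table and the 55351 genes of a bulk count table of naive microglia. In the single cells 5 of the 6 had at least 1 unique molecular identifier (UMI, a counted RNA molecule), and Cxcl12 had 0.

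CXCL1, CXCL2 and CXCL3 are small secreted CXC chemokines that bind CXCR2, the receptor through which neutrophils are drawn to inflamed tissue. Their genes are switched on quickly by inflammatory signals, largely through the transcription factor NF-kB, and their messages are short-lived. CXCL12, made by stromal and vascular cells, binds CXCR4. In bone marrow the CXCL12 and CXCR4 pair holds neutrophils back while CXCR2 draws them out, and in tissue a rise of CXCR4 with a loss of CXCR2 is known as a mark of an ageing neutrophil.

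The single-cell samples came from C57BL/6 recipients that were 8 to 12 weeks old (young) or 40 to 44 weeks old (middle-aged). All received CD4+ T cells of young CD45.1 donors that react to a myelin oligodendrocyte glycoprotein peptide and had been cultured with IL-23, which causes experimental autoimmune encephalomyelitis, and spinal cords were taken on day 6 or day 10 after transfer. Each age and day had 1 library, from 4 pooled spinal cords, so no library has a replicate, and sorting on CD45 left out CD45-negative astrocytes and blood vessel cells, while donor and recipient leukocytes stayed mixed. The bulk samples were 1 library of microglia from naive, untreated young mice and 1 from naive middle-aged mice.

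The 4 single-cell libraries held 8315 to 10026 cells and 57337626 to 69859331 UMIs, with a median of 4704.5 to 6196 UMIs a cell. Of the 37903 cell barcodes, 154 occurred in 2 libraries and 0 in more. The deposited clusters were used. Clusters 0, 3 and 6 were neutrophil-like by 11 marker genes, clusters 1 and 5 were monocyte- or macrophage-like, and clusters 8 and 10 held all 8 microglial markers. Cluster 0 had none of its neutrophil markers among its 10 leading genes, which Cxcl2 led, and its markers stood only 0.24 on the log2 scale above the other cells at the median, against 3.25 in cluster 3 and 4.53 in cluster 6. Its name therefore rests on weaker marker evidence than theirs. The neutrophil-like clusters made up 21.5% of young day 6 cells, 41.7% of middle-aged day 6 cells, 28.0% of young day 10 cells and 24.5% of middle-aged day 10 cells. Values of 4 libraries are given below in this order.

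The 3 CXCR2 ligand genes lie on the plus strand of chromosome 5 (build GRCm38), at 90891241 to 90893115 for Cxcl1, 90903871 to 90905938 for Cxcl2 and 90786103 to 90789600 for Cxcl3. Cxcl3 and Cxcl2 mark the ends of a stretch of 119.8 kb. The 120 bases upstream of each RefSeq start site (GRCm38.p6) are shown so that the control regions of the 3 neighbouring ligand genes can be compared. Capitals mark a match to the 10-letter NF-kB consensus on either strand, joined where both strands match. The sequences stand at chr5:90891125-90891244 for Cxcl1, chr5:90903779-90903898 for Cxcl2 and chr5:90785981-90786100 for Cxcl3.
Cxcl1: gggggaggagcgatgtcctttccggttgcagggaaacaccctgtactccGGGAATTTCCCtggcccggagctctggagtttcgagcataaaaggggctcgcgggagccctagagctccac
Cxcl2: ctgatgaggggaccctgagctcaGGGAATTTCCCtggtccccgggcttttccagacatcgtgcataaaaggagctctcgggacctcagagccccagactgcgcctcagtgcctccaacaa
Cxcl3: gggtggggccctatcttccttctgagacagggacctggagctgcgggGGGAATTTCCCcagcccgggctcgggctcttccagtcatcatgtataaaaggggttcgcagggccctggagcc

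The capital stretch began 71, 97 and 73 bases before the start site of Cxcl1, Cxcl2 and Cxcl3. Its inner letters GGAATTTCC, picked after the 3 sequences had been seen, occurred in 0.317% of 32851 mouse promoter windows of 300 bases, and the broader consensus in 8.46%. The TATA-box letters ATAAAAG on the plus strand followed it 34, 57 and 29 bases before the start and occurred in 3.39% of windows. The windows of Cxcr2, Cxcr4 and Cxcl12 held no match to the NF-kB letters. The Cxcr4 window held ATAAAAG too, 29 bases before its start. A match is a description of the letters and not a measurement of binding.

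Cxcl2 was the most widely detected of the ligands, with 837269 UMIs in 19552 cells, 51.4% of all cells. Most of its UMIs lay in the neutrophil-like clusters, at 65.3%, 75.3%, 70.3% and 67.3% in the 4 libraries. Another 19.8% to 29.1% lay in the monocyte- or macrophage-like clusters, and 2.02% to 2.70% in the microglial clusters. Clusters 13 and 14, with T cell or B cell markers first and neutrophil markers second, held 1.52% to 4.95%. In cluster 0 its level was 22925, 26994.5, 13028 and 14252 CPM (UMIs of the gene per 1000000 UMIs), and both day 6 values were above both day 10 values. In cluster 3 it was 18451, 33365, 5091 and 14857 CPM, with the middle-aged library above the young one on each day. Cluster 6, the cluster with the highest neutrophil marker level, held less, at 6963, 7076, 1968 and 3969 CPM. Single cells of cluster 0 spanned a wide range. Their median was 51, 50, 19 and 21 Cxcl2 UMIs, from 4 to 163 between the 10th and 90th percentile in young mice on day 6 and from 0 to 102 in middle-aged mice on day 10, and the single highest cell held 1374. A median cell of cluster 0 gave 1.97%, 2.13%, 0.756% and 0.891% of all its UMIs to this gene.

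**Figure D1:**
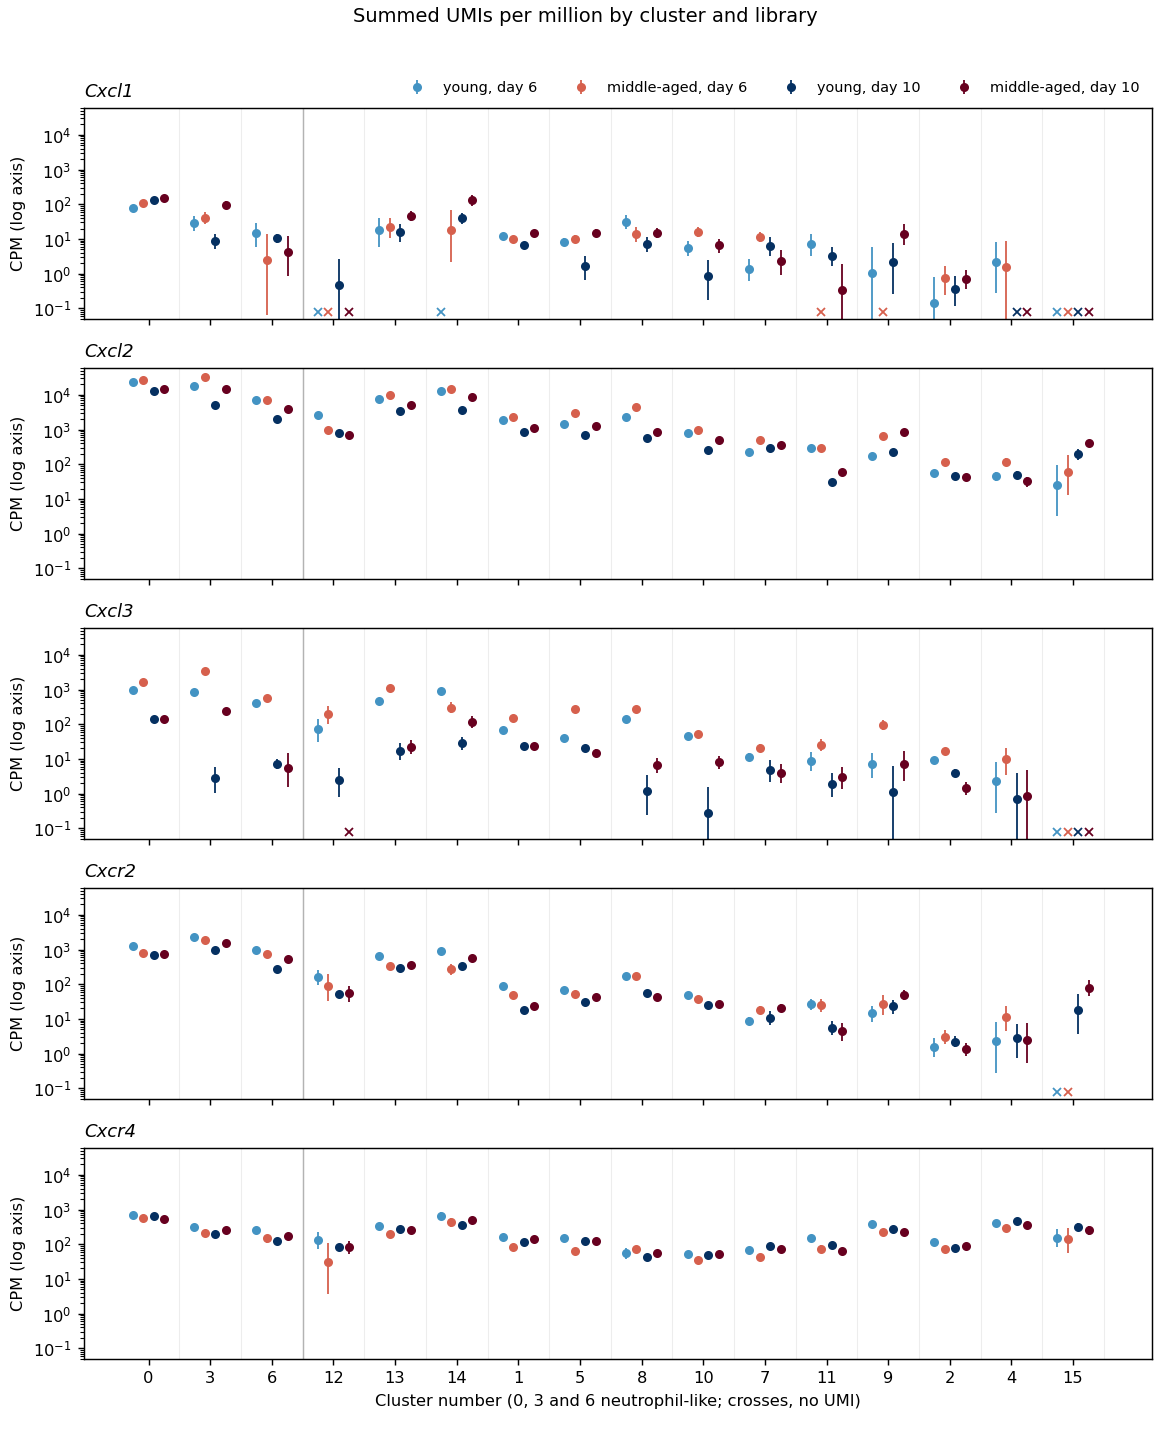
CPM of summed UMIs (log axis) of the 5 detected genes in the larger clusters, with 1 point per library coloured by age and day. Cxcl2 in the neutrophil-like clusters lies between 1968 and 33365 CPM, and in T cell-like cluster 2 and B cell-like cluster 4 between 32.3 and 117 CPM.

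Cxcl3 had 37576 UMIs in 3870 cells, 10.2% of all cells, and differed most between days. In cluster 0 it stood at 988, 1672, 138 and 137 CPM. In cluster 3 it stood at 844, 3463, 2.78 and 238 CPM, so that the young day 10 library was far below the other 3. Cluster 6 held 404, 578, 7.31 and 5.64 CPM. The neutrophil-like clusters held 67.9%, 73.6%, 47.3% and 54.6% of its UMIs.

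Cxcl1 was the rarest, with 4828 UMIs in 1126 cells, 2.96% of all cells. It reached 80.3, 111, 132 and 147 CPM in cluster 0, where both day 10 values were above both day 6 values. In cluster 3 it was 29.0, 41.2, 8.80 and 95.5 CPM. Cxcl12, the ligand of CXCR4, had 0 UMIs in 38057 cells, which allows a share of up to 0.00788% of cells with a UMI.

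Cxcr2, the receptor of these ligands, had 37469 UMIs in 9041 cells, 23.8% of all cells, and was concentrated in the neutrophil-like clusters, with 70.4%, 81.1%, 81.3% and 77.7% of its UMIs. Cluster 3 held the most, at 2318, 1842, 978 and 1496 CPM. Cluster 0 held 1239, 795, 673 and 720 CPM, so that its young day 6 library stood above the other 3. Cxcr2 was detected in 99.2%, 96.5%, 96.1% and 98.8% of cells in cluster 3 and in 68.1%, 54.9%, 52.8% and 56.5% in cluster 0. In B cell-like cells, which should lack it, the share was 0.678% to 1.09% at median depths of 2402 to 2997 UMIs, close to the 2193 to 2365 of cluster 0.

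Cxcr4 was spread more widely, with 42128 UMIs in 17498 cells, 46.0% of all cells. Only 33.2%, 61.4%, 37.0% and 32.5% of its UMIs lay in the neutrophil-like clusters. Its level in cluster 0 was 718, 583, 645 and 542 CPM, above 312, 217, 191 and 261 CPM in cluster 3. B cell-like cells held 408, 285, 480 and 351 CPM, and NK cell-like cells 371, 222, 281 and 221 CPM. Within every library the level of Cxcr2 was higher in cluster 3 than in cluster 0 and that of Cxcr4 was higher in cluster 0. Within cluster 0, the 1030, 2438, 1164 and 1491 cells with at least 2000 UMIs were thinned to 2000. Of these, 41.6%, 29.0%, 32.0% and 31.0% carried both receptors. The product of the separate shares was 41.4%, 30.3%, 31.3% and 29.6%, close to the joint share in each library.

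In the microglial clusters the chemokine RNA was read beside neutrophil marker RNA, which may spill over from other cells. Cxcl2 in cluster 8 was 2269, 4425, 587 and 860 CPM, and in cluster 10 it was 785, 973, 254 and 487 CPM. Few cells carried it. The share with a UMI was 21.7%, 40.9%, 16.9% and 13.5% in cluster 8, against 12.5%, 29.4%, 12.5% and 9.76% in B cell-like cells of similar median depth. Of the Cxcl2 UMIs in cluster 8, 87.8%, 92.2%, 94.4% and 94.4% lay in cells that also held at least 5 UMIs of 8 neutrophil marker genes. The same share in cluster 10 was 93.4%, 83.2%, 94.9% and 87.0%. The 10 cells with the most Cxcl2 alone held 85.1%, 43.5%, 58.6% and 59.4% of its UMIs in cluster 8.

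When those marker-bearing cells were left out, 233 of 249, 302 of 364, 496 of 668 and 716 of 776 cells of cluster 8 remained. Their Cxcl2 level was 330, 503, 54.2 and 55.9 CPM, and in cluster 10 it was 60.3, 210, 29.2 and 77.5 CPM. Only cells with at least 2000 UMIs could be thinned to 2000. Cluster 8 had 132, 234, 490 and 473 of them, marker-bearing cells included. Without marker-bearing cells, 13.8%, 19.8%, 6.38% and 6.51% of the thinned cells of cluster 8 carried Cxcl2. In cluster 10 the share was 10.0%, 10.1%, 5.76% and 6.92%. In B cell-like cells treated alike the level was 44.8, 98.6, 48.3 and 32.5 CPM and the share was 9.49%, 17.5%, 9.25% and 6.41%. The exact 95% intervals of either microglial cluster and the B cell-like cells overlapped in all 4 libraries, for example 8.09% to 21.4% in cluster 8 and 6.29% to 13.6% in B cell-like cells of the young day 6 library. The shares could not be told apart at this depth. The level in cluster 8 was above the B cell-like level in all 4 libraries and in cluster 10 in 3 of the 4. These levels carry no counting interval, and some were close, such as 54.2 CPM in cluster 8 against 48.3 CPM in the young day 10 library. Whether the levels differ beyond counting error was not tested.

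The ratio of Cxcl2 to Cxcr2 UMIs was compared between clusters of the same library. Over all neutrophil-like cells it was 16.03, 31.29, 12.30 and 17.38. In cluster 8 it was 13.1, 25.9, 10.7 and 20.1, and in cluster 10 it was 15.9, 25.8, 10.4 and 18.5. In cluster 8 the interval lay below the neutrophil-like value in 2 libraries, the young and the middle-aged day 6 library. The ratio also differed among neutrophil-like clusters, with 18.50 in cluster 0, 7.96 in cluster 3 and 7.27 in cluster 6 of the young day 6 library. T cell-like cluster 2, which should hold neither gene, stood at 36.2, 38.2, 20.0 and 32.3 from 11 to 31 Cxcr2 UMIs a library, above the neutrophil-like ratio in all 4. Cluster 1, monocyte- or macrophage-like, stood at 21.8, 48.3, 46.2 and 47.6, above the neutrophil-like ratio in all 4 libraries. Cluster 5 of the same kind stood at 21.5, 57.9, 22.2 and 29.5, also above it in all 4, as it was in T cell-like cells.

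**Figure D2:**
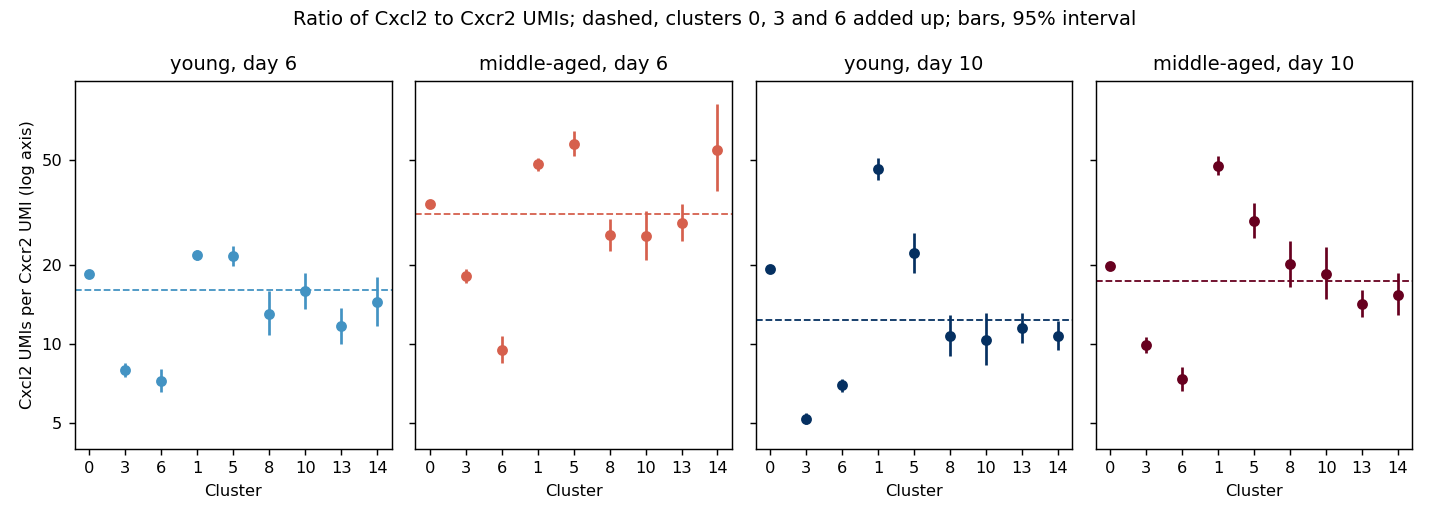
Cxcl2 UMIs per Cxcr2 UMI (log axis) by cluster and library, with the exact 95% interval for counting error. Cluster 8 lies between 10.7 and 25.9 and cluster 1 between 21.8 and 48.3, against 12.3 to 31.3 in neutrophil-like cells.

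In cluster 1 Cxcl2 was 1912, 2346, 858 and 1104 CPM. If all its neutrophil marker RNA came with Cxcl2 in the proportion found in neutrophil-like cells, a certain Cxcl2 count would be expected in the cluster, and the observed count was 1.90, 1.86, 5.36 and 4.03 times that expectation. The same measure in cluster 8 was 1.25, 0.952, 2.26 and 1.65, and in cluster 10 it was 0.670, 1.72, 1.47 and 0.931. The measure depends on the markers. With Retnlg as the only marker, 15 of its values in clusters 1, 5, 8 and 10 left their counting interval and 1 stayed within. It also pools clusters 0, 3 and 6. Cluster 6, with less Cxcl2, made up 3.36%, 1.03%, 18.7% and 3.44% of the neutrophil-like cells. Without marker-bearing cells, cluster 1 kept 654, 1384, 553 and 819 CPM of Cxcl2, and 23.8%, 39.1%, 20.3% and 27.2% of its thinned cells carried it, above the B cell-like share in all 4 libraries with no overlap of the intervals. Cxcr2 behaved otherwise: in the same cells it dropped to 3.73, 4.16, 2.19 and 1.84 CPM from 87.6, 48.6, 18.6 and 23.2. Cxcr4 was kept there, at 126, 61.4, 131 and 147 CPM against 160, 83.4, 116 and 141 with all cells.

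On day 6 and day 10 the middle-aged library was compared with the young library of the same day. With 1 library a group these ratios have no test, and their exact 95% intervals cover counting error only. In cluster 3 Cxcl2 was higher in the middle-aged library by 0.85 (0.82 to 0.89) on day 6 and by 1.54 (1.504 to 1.587) on day 10 on the log2 scale. The median over all genes with enough UMIs there was -0.16 and 0.09. In cluster 0 the difference was smaller, at 0.24 (0.23 to 0.25) and 0.13 (0.11 to 0.14), against medians of -0.06 and -0.02. Cxcl3 in cluster 3 differed by 2.04 and by 6.42 (5.26 to 7.89), the latter against a young library with 2.78 CPM. Cxcl1 in cluster 3 differed by 0.51 on day 6, from 16 young and 26 middle-aged UMIs, with an interval that included 0. On day 10 Cxcl1 there differed by 3.44 (2.66 to 4.28), from 19 young and 53 middle-aged UMIs. The receptors changed sign between days: Cxcr2 in cluster 0 was lower in the middle-aged library by 0.64 on day 6 and higher by 0.10 on day 10, and Cxcr2 in cluster 3 was lower by 0.33 and higher by 0.61. Cxcr4 in cluster 0 was lower on both days, by 0.30 and 0.25.

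In microglial cluster 8 Cxcl2 was higher in the middle-aged library by 0.96 (0.88 to 1.05) on day 6 and by 0.55 (0.46 to 0.65) on day 10. Without marker-bearing cells these values were 0.61 and 0.04. Without the 10 cells richest in Cxcl2, the day 6 value was 2.82. In cluster 10 the differences were 0.31 (0.23 to 0.39) and 0.94 (0.82 to 1.06), and without marker-bearing cells they were 1.80 and 1.41. The summed level of the 8 neutrophil markers in cluster 8 was 6884, 10067, 8906 and 3591 CPM, and in cluster 10 it was 4450, 1223, 5962 and 3609 CPM. In cluster 8 the marker level moved with Cxcl2 on day 6 and against it on day 10, and its part in the age differences was not tested.

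**Figure D3:**
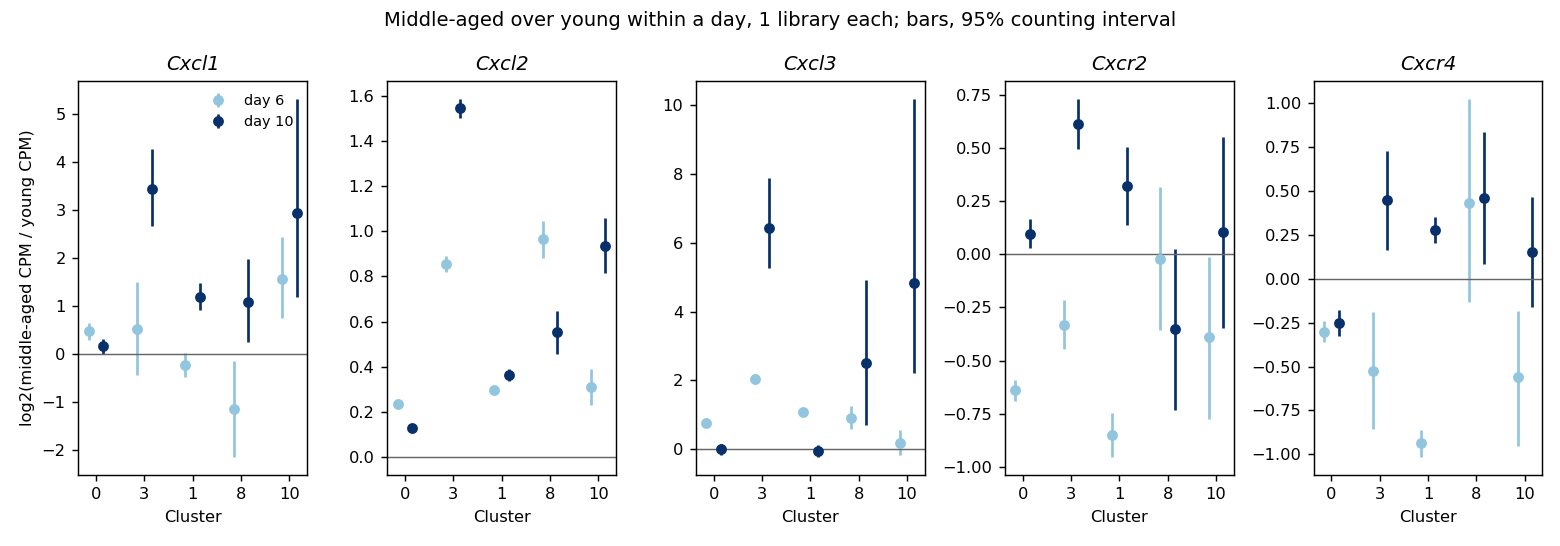
Log2 ratio of CPM, middle-aged over young, for each gene and cluster on day 6 and day 10, with exact 95% intervals for counting error and a y scale of its own for each gene. Cxcl2 is above 0 on both days in clusters 0, 3, 1, 8 and 10, while Cxcr2 is below 0 on day 6 in each of them.

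Across both days, the effect of age was tested in each cluster with edgeR's quasi-likelihood test and Benjamini-Hochberg adjustment over all genes tested. The day was a term, which left 1 residual degree of freedom. With 1 library per age and day, that degree holds the change of the age difference between days, which edgeR moderates with values from all genes. The p-values therefore do not measure a spread among replicate libraries. In cluster 3 Cxcl2 was higher in middle-aged mice by 1.24 (adjusted p = 0.0425) and Cxcl3 by 3.61 (adjusted p = 0.0418) on the log2 scale, 2 of 5 members tested, where 0.84% of all genes were called higher. Cxcl1 there was 2.18 higher with adjusted p = 0.101. A fit without 1 library has no residual degree of freedom left with the day term, so the term was dropped with the library, and age and day were then mixed. Neither call held in such edgeR fits without the middle-aged day 6, the young day 10 or the middle-aged day 10 library, nor with all 4 libraries and no day term, nor with RLE scaling, so that what each library adds to the call cannot be told apart from the term. In cluster 0 none of 5 members was called (0.0834% of genes higher) and 2 had an unadjusted p under 0.05. Cxcl2 there was 0.23 higher with adjusted p = 0.775. In cluster 1 none was called (0.0491% of genes higher), 1 had an unadjusted p under 0.05, and the gene with the smallest adjusted p was Camp, a neutrophil granule gene.

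In microglial cluster 8 edgeR called 1 of 5 members, Cxcl2, higher in middle-aged mice by 0.77 (adjusted p = 0.0337), where 0.0597% of genes were called higher. The gene with the smallest adjusted p in that cluster was Ngp, a neutrophil granule gene. Without marker-bearing cells Cxcl2 was 0.38 higher with an edgeR adjusted p of 0.999, within a range of 0.000133 to 1 over 9 alternatives. No member was called with no day term, nor without any 1 of the 4 libraries, where the day term was dropped too. In cluster 10 none of 5 members was called (0.0663% of genes higher), and 2 had an unadjusted p under 0.05. Without marker-bearing cells Cxcl2 in cluster 10 was called, 1.65 higher with an edgeR adjusted p of 0.00121, the smallest of 9 alternatives that reached up to 1.

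Day called more members than age, 15 against 3 over the 5 clusters, and it called more of all genes too. In clusters 0, 3, 1, 8 and 10 day called 54.4%, 17.8%, 29.9%, 13.4% and 6.64% of all genes. Age called 0.208%, 0.929%, 0.0982%, 0.0956% and 0.142%. Cxcl2 and Cxcl3 were lower on day 10 than on day 6 in all 5 clusters tested, by the same edgeR fit with age as a term. In cluster 0, 4 of 5 members fell, while 27.2% of all genes there were called lower: Cxcl3 by 3.99 (adjusted p = 3.00e-09), Cxcl2 by 1.63 (adjusted p = 1.74e-07), Cxcr2 by 1.27 (adjusted p = 1.10e-05) and Cxcr4 by 0.89 (adjusted p = 3.80e-05). Cxcl1 was the exception. In CPM it was higher on day 10 by 0.72 in young and 0.41 in middle-aged mice, while in the edgeR fit, whose scaling follows the bulk of genes, it was -0.20 (adjusted p = 0.230), so its direction turns with the scaling. The CPM median over all genes of cluster 0 moved by 0.57 and 0.68 between days, more than in the other clusters. In CPM, Cxcr4 was only -0.15 and -0.11 and Cxcr2 -0.88 and -0.14 in young and middle-aged mice. Cxcl2 was -0.82 and -0.92 and Cxcl3 -2.84 and -3.61 in CPM, also smaller falls than in edgeR. The size of the fall of these 4 genes thus rests on the scaling.

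In cluster 3, 3 of 5 members fell against 13.2% of genes called lower, namely Cxcl3 by 5.70 (adjusted p = 3.02e-04), Cxcl2 by 1.75 (adjusted p = 6.01e-04) and Cxcr2 by 1.02 (adjusted p = 0.0180) in edgeR. Cxcr4 there was -0.47 (adjusted p = 0.258). No member was called in cluster 3 without the age term, whether with all 4 libraries or without the young or the middle-aged day 6 library. In cluster 1, 3 of 5 fell against 15.2% of genes, with Cxcl3 by 2.28, Cxcr2 by 1.82 and Cxcl2 by 1.29. Without marker-bearing cells these were -2.23 (edgeR adjusted p = 0.000233), -1.18 (edgeR adjusted p = 0.0204) and -0.66 (edgeR adjusted p = 0.034). In the same fit Cxcl1 was 0.61 (edgeR adjusted p = 0.059), against -0.28 with all cells, and Cxcr4 was 0.50 (edgeR adjusted p = 0.142). In that cluster none was called without the young day 10 library and 1 without the middle-aged day 10 library, fits that also lack the age term, while all 4 libraries without that term gave 3.

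In cluster 8, 3 of 5 fell against 6.9% of genes, with Cxcl3 by 5.46 (adjusted p = 2.47e-10), Cxcl2 by 1.88 (adjusted p = 2.33e-08) and Cxcr2 by 1.55 (adjusted p = 2.98e-05) in edgeR. Without marker-bearing cells 1 member was still called, Cxcl2, at -2.61 on the log2 scale (edgeR adjusted p = 7.78e-23, in a range up to 0.000836 over 9 alternatives), while Cxcl1, Cxcl3 and Cxcr2 no longer had enough counts to be tested. In cluster 10, 2 of 5 fell against 3.46% of genes, with Cxcl3 by 3.55 and Cxcl2 by 1.16, and 1 was called with no age term, with all 4 libraries or without either day 10 library. Without marker-bearing cells Cxcl2 in cluster 10 was -1.11 (edgeR adjusted p = 0.00488). Cxcr4 there was called higher on day 10, at 1.33 (edgeR adjusted p = 0.00972), against 0.35 (edgeR adjusted p = 0.384) with all cells. Of the 3 ligand genes whose promoters are shown above, Cxcl2 and Cxcl3 were called lower on day 10 in each of the 5 clusters with all cells. Cxcl1 was called in none, with edgeR values from -1.57 in cluster 10 (adjusted p = 0.0614) to -0.20 in cluster 0.

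A list of 15 genes that NF-kB induces or that take part in the decay of short-lived messages was read beside the members. On day 10, edgeR called 15 of them lower in cluster 0, 11 in cluster 3, 12 in cluster 1, 10 in cluster 8 and 1, Nfkbiz, in cluster 10, where 27.2%, 13.2%, 15.2%, 6.9% and 3.46% of all genes were called lower. Their median change was -1.29, -1.17, -0.97, -1.01 and -0.07 in these clusters on the log2 scale, against 0.08, 0.03, 0.03, -0.01 and -0.00 over all genes. In CPM the median in cluster 0 was -0.55 in young and -0.70 in middle-aged mice, and Tnf, the cytokine, was 0.55 in young mice. With age, 2 of the list were called, both higher in middle-aged cluster 3: Ccl3 by 1.64 (edgeR adjusted p = 0.0418) and Ccl4 by 1.84 (edgeR adjusted p = 0.0489), which draw monocytes and T cells. With 0.84% of genes called higher there, both calls were lost with RLE scaling or with no day term, where 0 genes were called. Of 8 receptors for other neutrophil attractants, 7 were lower on day 10 in cluster 0, 4 in cluster 3, 4 in cluster 1 and 3 in cluster 8, beside the same shares of all genes. In cluster 10, 2 were lower, Ccr1 and Il17ra. Fpr1 was higher there, by 1.735 (edgeR adjusted p = 0.0262), where 336 of 10562 genes were called higher. In CPM, 6 of the 8 were lower in young and 5 in middle-aged cluster 0. Of 8 genes tied to neutrophil release and ageing, Cxcr2 and Cxcr4 among them, 8 were lower in cluster 0 and 5 in cluster 3. In clusters 1, 8 and 10 the number called lower was 6, 3 and 1. Among 13 other CXC chemokines and receptors, 2 were called higher with age, Mif in cluster 3 by 1.87 (edgeR adjusted p = 0.0371) and Cxcl14 in cluster 1 by 1.16 (edgeR adjusted p = 0.0345). By day, Cxcl16 was lower on day 10 in cluster 0 (-1.11) and higher in cluster 8 by 0.98, and Pf4 was higher in cluster 8 by 3.22. Cxcr1, the other receptor of this kind, was lower in cluster 0 (-1.31). The other day calls were Cxcr5, lower in cluster 0, Pf4 and Cxcr3, higher in cluster 1, Cxcr1, lower in cluster 1, and Cxcr6, higher in cluster 10.

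The genes whose level over the 16 clusters was most like that of each member were also found, by Pearson correlation of log2(CPM + 10) among 10682 genes. The clusters share libraries, so the values are a description. For Cxcl2 they were Slfn4 at 0.986, Clec4e, a receptor for dead cells and microbes, at 0.982 and Csf3r, the G-CSF receptor, at 0.978. For Cxcr2 they were G0s2, an inhibitor of fat breakdown, at 0.986, Asprv1 at 0.986 and Stfa2l1 at 0.982. For Cxcl3 the first was Clec4d at 0.977 and for Cxcl1 it was Il23a, a subunit of IL-23, at 0.976. Cxcl2 correlated with Cxcr2 at 0.951 and with Cxcl3 at 0.941. Cxcr4 stood apart, with 0.365 to Cxcl2 and 0.457 to Cxcr2, and its most alike gene was Klhl24 at 0.933.

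In bulk microglia of naive mice the question was whether age alone went with a difference. The young library held 79373420 counts and the middle-aged one 76293436. Cxcl12 had the largest difference of the members, with 1421 counts (17.9 CPM) in the young library and 601 (7.88 CPM) in the middle-aged one, a log2 ratio of -1.18 (-1.32 to -1.05), and was the only 1 of the 4 members with at least 100 counts to be more than 2-fold lower, as were 6.9% of 14821 genes. Cxcl2 had 317 and 412 counts, a ratio of 0.44 (0.22 to 0.65), and Cxcl1 had 102 and 61, a ratio of -0.68 (-1.17 to -0.21). Cxcr4 had 417 and 391 counts, with a ratio of -0.04 (-0.24 to 0.17), and Cxcr2 had 31 and 38, with a ratio of 0.35 (-0.37 to 1.08). Cxcl3 had 4 and 2 counts, too few to compare.

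Beside Cxcl12, 9 of 9 blood vessel endothelial genes were lower in the middle-aged bulk library, with a median of -2.18 and a summed level of 624 against 167 CPM. All 5 perivascular macrophage genes were lower too, at a median of -1.14. The 8 microglial markers had a median of -0.11 and summed to 30015 and 28140 CPM, and over all 14821 genes the median was -0.01. The study sorted CD45-intermediate, CD11b+ cells for these libraries, a gate that should leave out vessel cells, yet their genes were detected in both. Their part in the Cxcl12 difference was not tested, and in bulk fewer cells of a type and less RNA per cell cannot be told apart. Beside Cxcl2, 15 of 15 genes of the NF-kB list were higher in the middle-aged library, at a median of 0.62, among them Ccl3 by 1.37 and Il1b, the inflammatory cytokine interleukin-1 beta, by 1.34. Of the 8 neutrophil marker genes, 6 were higher in that library and 2 lower, at a median of 0.16. They summed to 240 CPM in the young and 278 CPM in the middle-aged library, against 3.99 and 5.40 CPM of Cxcl2. Their part in the Cxcl2 difference was not tested. With 1 library an age, these ratios compare the libraries.

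**Figure D4:**
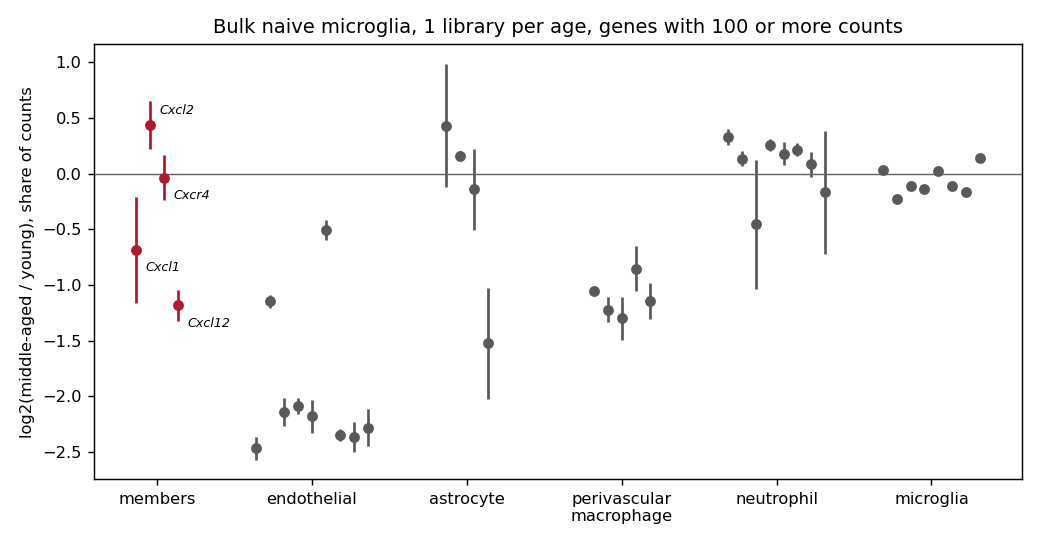
Log2 ratio of CPM, middle-aged over young, in bulk microglia of naive mice, with exact 95% intervals for counting error. Cxcl12 lies at -1.18 and Cxcl2 at 0.44, while the interval of Cxcr4 includes 0.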

How the data were processed

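The authors deposited UMI counts per gene and cell, made with Cell Ranger 3.1.0 on mm10, with their cluster numbers, and read counts per gene for the bulk libraries, counted without strand. No count was normalized before deposit. UMIs were summed per cluster and library and divided by the sum to give CPM. Library ratios carry exact conditional binomial intervals of 95% and shares exact binomial intervals. Clusters 0, 3, 1, 8 and 10 were tested with edgeR 4.0.16 (quasi-likelihood, TMM scaling, genes with at least 10 counts in at least 2 libraries, day and age as terms), and a gene was called at an adjusted p under 0.05. Expected spill-over was the neutrophil-like Cxcl2 count per marker count times the cluster's marker count. R 4.3.3, Python 3.11.15, pandas 2.3.3 and DESeq2 1.42.0 were also used. Alternatives were other scaling, no filter, no second term, DESeq2, deeper cells, cells without neutrophil markers and leaving out each library together with the second term. The 6 members were named in full, likeness named the 3 genes with the highest correlation, and the other genes named came from the lists, except Ngp and Camp, which were chosen after their values were seen. The members and lists were chosen with earlier results of these data known. The fit was tested on simulated data. Doublets were not called.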

Additional observations from a re-analysis of the deposited data

Results flagged for a closer look

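Among clusters 0, 3, 1, 8 and 10, 6 age differences whose counting intervals left out 0 pointed one way on day 6 and the other way on day 10 and are given here for that reason. Each age and day had 1 library, and the difference between days was not tested. On the log2 scale of CPM, middle-aged over young, Cxcr2 in cluster 0 was -0.64 on day 6 and 0.10 on day 10, Cxcr2 in cluster 3 was -0.33 and 0.61, and Cxcr2 in cluster 1 was -0.85 and 0.32. Cxcr4 in cluster 3 was -0.52 and 0.45, and Cxcr4 in cluster 1 was -0.94 and 0.28. Cxcl1 in cluster 8 was -1.15 and 1.08. Of the Cxcr2 UMIs in cluster 1, 94.1% to 97.2% lay in cells with neutrophil markers. Clusters that were not tested held such pairs too, among them Cxcr2 in cluster 5 (-0.40 and 0.43), 6 (-0.37 and 0.93), 13 (-0.94 and 0.34) and 14 (-1.68 and 0.73), Cxcr4 in cluster 2 (-0.71 and 0.17), 6 (-0.78 and 0.47) and 14 (-0.61 and 0.40), and Cxcl2 in cluster 4 (1.39 and -0.65).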

How the results depend on the processing

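Of 230 alternative values of the 39 per-day age ratios whose interval left out 0, 9 turned sign. All 30 alternative bulk ratios stayed within their counting interval. Of 150 alternative values of the 18 member effects that edgeR called, 110 were still called, 38 were not and 2 turned sign. The cause was not tested in any case.

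For Cxcl2, middle-aged over young on the log2 scale, the cluster 0 values of day 6 and day 10 were 0.32 and 0.15 with TMM-scaled sizes, 0.27 and 0.15 in cells with at least 2000 UMIs, 0.27 and 0.16 without the 10 cells richest in the gene, and 0.21 and 0.082 as a mean per cell. In cluster 8 they were 0.86 and 0.66 in deeper cells, 1.40 and 0.41 as a mean per cell, and 0.61 and 0.043 without marker-bearing cells. On day 6 cluster 8 gave 2.82 without its 10 richest cells. With spill-over subtracted, the day 10 value was 0.053. In cluster 10 the day 6 value was 0.60 without the 10 richest cells, 0.93 as a mean per cell and 1.80 without marker-bearing cells, and the day 10 value without them was 1.41. Subtraction by the neutrophil gene Retnlg alone, an alternative chosen after seeing the data like the combined thinning and removal of marker-bearing cells, turned Cxcl2 to -0.78 in cluster 8 on day 6 and to -1.20 in cluster 10 on day 10, and gave 2.02 in cluster 8 on day 10.

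Among the other members, Cxcl1 in cluster 8 on day 10 became -0.22 as a mean per cell and -0.50 without marker-bearing cells. Without those cells Cxcr2 in cluster 1 became 0.16 on day 6 and -0.25 on day 10. Cxcr2 in cluster 10 on day 6 became 0.22 as a mean per cell and 2.48 without marker-bearing cells, and Cxcr4 there 0.48 with spill-over subtracted. A fit without 1 library also lacked the term for the other factor, since no residual degree of freedom would remain, so age and day were mixed in it. In edgeR without the middle-aged day 6 library and without the day term, the age effect was -1.004 for Cxcl3 in cluster 3 and -0.46 for Cxcl2 in cluster 8. Over the libraries left out in this way these effects reached up to 9.57 and 1.96.

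The share of Cxcl2 UMIs in neutrophil-like clusters was 61.9%, 71.3%, 67.7% and 64.6% in deeper cells and 85.1%, 90.2%, 80.8% and 79.2% with spill-over subtracted.

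Members called by age in cluster 3 numbered 0 with RLE scaling, 0 with no day term, 1 in DESeq2 and 0 to 2 with a library and the term left out. In cluster 8 they numbered 2 with no filter, 0 with no day term, 0 in DESeq2, 0 without marker-bearing cells and 0 with any library left out. In cluster 10 they numbered 1 with no filter and 1 without marker-bearing cells. Members called by day numbered 0 in cluster 3 and 1 in cluster 10 with no age term, and 1 in cluster 8 without marker-bearing cells. With a library and the age term left out, the day counts ran from 0 to 4 in cluster 3, from 0 to 3 in cluster 1 and from 1 to 2 in cluster 10.

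Over all genes, the count called by age was 20, 42, 12, 8 and 15 in clusters 0, 3, 1, 8 and 10. It was 181, 182, 3, 41 and 53 with no filter, 35, 0, 4, 12 and 16 with RLE scaling, 5, 28, 12, 2 and 5 in DESeq2, 0 in each with no day term, and from 0 to 187 with a library left out. By day it was 5218, 803, 3654, 1122 and 701, against 2929, 381, 1923, 248 and 138 in DESeq2. Cxcl1 had 4828 UMIs in all and Cxcl12 had 0, which limits what could be compared.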
